A study of Mus musculus with 12 samples.

Results

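T cell receptor (TR) genes were followed in RNA of mouse spleen: all genes of the deposited count table whose identifiers the GENCODE M21 annotation of GRCm38 classes as TR variable (V) or TR constant (C) genes. They numbered 104 of the 32121 genes in the table, 96 V genes and 8 constant genes. Of these, 62 V genes and Trac belonged to the alpha chain (Tra), 22 V genes with Trbc1 and Trbc2 to the beta chain (Trb), 7 V genes and 4 constant genes to the gamma chain (Trg), and 5 V genes and Trdc to the delta chain (Trd). GENCODE lists 152 such genes, of which 48 had no row and were not analysed here. The V gene B230359F08Rik has no chain in its name and was placed with Tra because it lies among the Tra V genes on chromosome 14.

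The samples were 12 pieces of spleen, 2 from each of 6 mice labelled C57BL/6. The 3 SB animals, SB1 to SB3, carried VEC-Cre, the Sleeping Beauty (SB) transposase, which moves DNA transposons, and the mutagenic transposon onc2. The 3 WT animals, WT1 to WT3, are labelled as wild type and as controls. The series title ties VEC-Cre to the endothelium, and the stated purpose was to learn, from pieces of the same spleen, how clonal each spleen is. Ages are not among the labels used here, and nothing in them says where in a spleen a piece was cut. Libraries held 14320833 to 22031026 counts, and the 104 genes took 0.00735% to 0.0210% of the counts in SB libraries and 0.0354% to 0.0512% in WT libraries. Xist, which silences an X chromosome in female cells, had 2271 CPM in SB1, 1002 in SB2 and 1.67 in SB3, against 1.49 to 2.44 in WT animals. CPM are counts scaled to a common, TMM-adjusted library size. The part of sex in the results was not tested.

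Each T cell builds its receptor genes by joining 1 V segment to a J segment, and in the beta and delta chains also to D segments, in front of a constant region. Most splenic T cells carry an alpha and a beta chain, and a minority carry a gamma and a delta chain. A mixed population of T cells uses many V genes, whereas the descendants of 1 T cell share the same rearranged segments. Segments can also be transcribed before or without rearrangement, and a gene-level count does not tell such RNA from that of a joined receptor gene.

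Most TR genes had less RNA in SB spleens, but the chains did not move together. Over all 104 genes, 89 had a lower mean CPM in SB than in WT and 15 had a higher one. In edgeR's quasi-likelihood test, which took the animal as the replicate, 46 of the 104 genes passed the filter on low counts. All 46 reached the filter's level in every WT spleen, and 25 of them reached it in no SB spleen, so most genes entered the test through WT, where they are high. Of these 46, 25 were lower in SB at a Benjamini-Hochberg adjusted p under 0.05, where 9.1% of all 17328 genes tested were called lower. Only Tcrg-C1 was called higher, where 7.99% of all genes tested were. The remaining 20 were not called. An unadjusted p under 0.05 was found for 38 of the 46 genes, and for 5995 of all 17328 genes tested. Over all 104 genes, 39 had every SB library below every WT library, Tcrg-C1 alone had every SB library above, and 64 overlapped. The same count was not made over all genes of the table, so these numbers are not read as a trait of TR genes. With only 3 animals a group, the count of lower genes depended on single animals. Without WT1, WT2 or WT3 it was 1 of 48, 0 of 56 and 1 of 51 tested, and without SB2 it was 47 of 60. Calls over all genes, in either direction, moved likewise. They went from 2961 to 399, 253 and 376 without WT1, WT2 or WT3, and to 6174 without SB2. Counts from piece 1 alone gave 13 lower genes of 27 tested, and counts from piece 2 alone gave 11 of 26, with 2722 and 2205 calls over all genes.

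**Figure D1:**
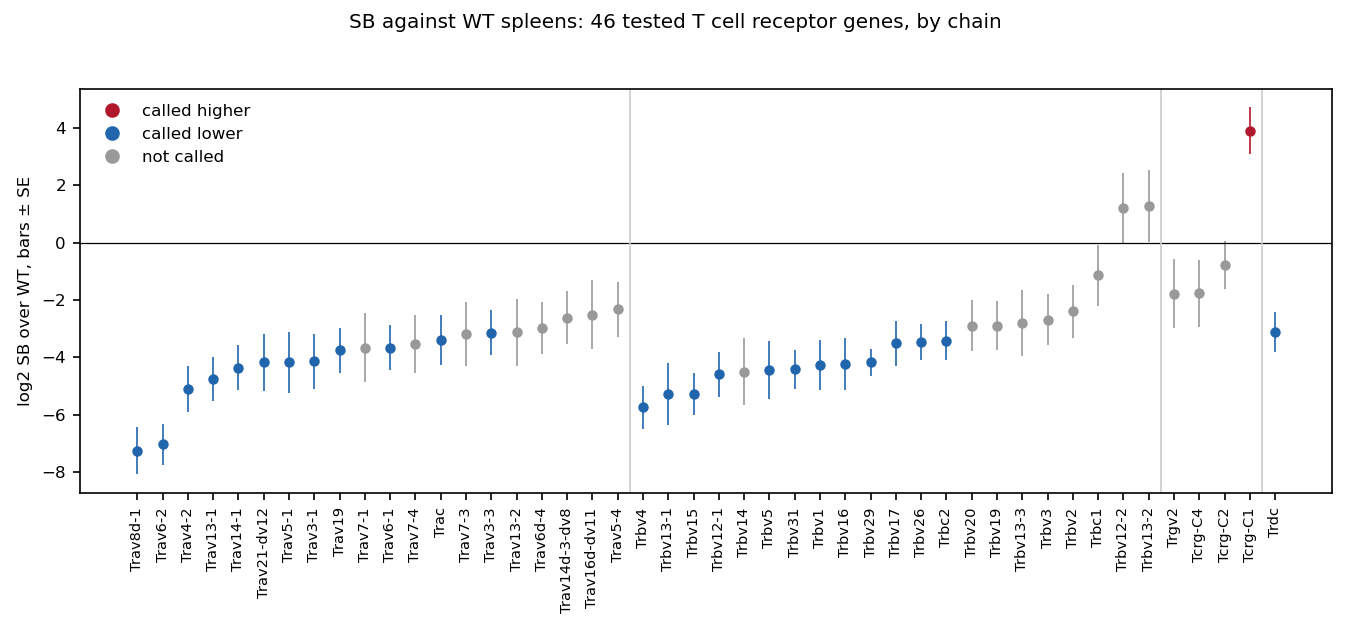
Log2 change of SB over WT spleens for the 46 tested T cell receptor genes (vertical axis, bars ± SE, 3 animals per genotype), ordered within Tra, Trb, Trg and Trd. The filter kept genes that are high in WT, nearly all points lie below 0, Trbv12-2 and Trbv13-2 lie above 0 with wide bars, and Tcrg-C1 at 3.90 is the only one called higher.

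Summed over V and constant genes, Tra RNA came to 10.1, 26.6 and 4.32 CPM in SB1, SB2 and SB3, against 142, 126 and 144 CPM in WT1, WT2 and WT3. The Trb total was 102.8, 43.0 and 104 CPM in the SB animals, against 274, 237 and 282 CPM in the WT animals. The Trd total was 0.625, 2.97 and 3.11 CPM in the SB animals, against 12.1, 8.97 and 13.1 CPM in the WT animals. For all of these chains every SB library lay below every WT library. Trg ran the other way in 2 of 3 animals, with 75.9, 14.6 and 59.1 CPM in SB1, SB2 and SB3 and 13.6, 10.4 and 15.3 CPM in WT1, WT2 and WT3. SB2 thus lay within the WT range for Trg, and its libraries of 14.6 and 14.6 CPM lay within the 6.90 to 18.2 CPM of the WT libraries. In log2 of the mean CPM, SB over WT, the totals differed by -3.33 for Tra, -1.66 for Trb, 1.93 for Trg and -2.35 for Trd. In whole tissue, fewer T cells and less TR RNA per T cell cannot be told apart.

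**Figure D2:**
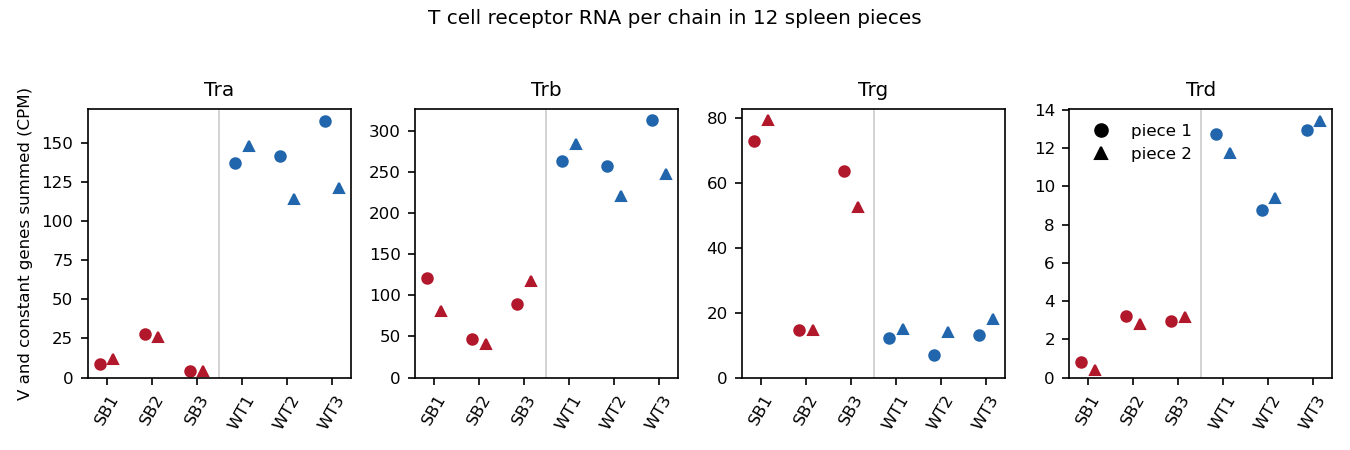
Summed V and constant gene RNA per chain (vertical axes, CPM, each starting at 0) in the 12 spleen pieces, with circles for piece 1 and triangles for piece 2. SB pieces lie below all WT pieces for Tra, Trb and Trd, and SB1 and SB3 stand far above WT for Trg.

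Trac (ENSMUSG00000076928, GRCm38 chromosome 14, 54220521 to 54224206), the only alpha constant gene, fell. It had 140 and 162 counts in the pieces of SB1, 319 and 448 in SB2 and 37 and 42 in SB3, against 1521 to 2611 counts in WT libraries. That is 11.2 ± 10.9 CPM in SB and 119 ± 7.86 CPM in WT (SD, n = 3 each). The log2 change was -3.41 (SE 0.86, edgeR adjusted p = 0.0469). The groups were far apart in level, but the SB animals also differed among themselves, at 8.58, 23.2 and 1.92 CPM in SB1, SB2 and SB3.

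Trbc2 (chromosome 6, 41546730 to 41548352) and Trdc, constant genes of the beta and delta chains, fell as well. Trbc2 had 20 and 59 counts in SB1, 188 and 293 in SB2 and 179 and 301 in SB3, against 1287 to 2269 in WT libraries (log2 -3.43, SE 0.69, edgeR adjusted p = 0.0254). Trdc had 5 to 44 counts in SB libraries, against 125 to 218 in WT libraries (log2 -3.13, SE 0.70, edgeR adjusted p = 0.0343). Trdc overlaps Gm43434 and Trdv5 in the annotation, and the libraries carry no strand. The calls of Trac, Trbc2 and Trdc were lost in each fit without a WT animal (adjusted p 0.0925 to 0.147). Trac was also lost without SB1 (adjusted p = 0.0929), Trbc2 without SB3 (0.0580), and Trdc without SB1 (0.0508) or SB3 (0.0607).

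Trbc1, the other beta constant gene, did not follow Trbc2 in SB3. Trbc1 (chromosome 6, 41538218 to 41539881) had 38 and 76 counts in SB1, 217 and 249 in SB2 and 1582 and 1973 in SB3, against 1031 to 1586 in WT libraries. SB3 was therefore at or above the WT level, while SB1 and SB2 were below it, and the genotype difference was not called (log2 -1.14, SE 1.06, edgeR adjusted p = 0.487). Without SB3 the log2 change was -3.13 and the call was made (adjusted p = 0.0477). Trbc1 made up 59.1%, 49.2% and 88.1% of the counts of both beta constant genes in SB1, SB2 and SB3, against 43.0%, 44.0% and 41.5% in WT1, WT2 and WT3. The exact Clopper-Pearson 95% interval was 87.1% to 89.1% in SB3 and 51.8% to 66.1% in SB1. Such intervals cover counting error only.

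How far the authors' counting separates both beta constant genes is limited by their likeness. Of all 50-base stretches of the Trbc1 transcripts, 40.5% also occur in another gene of the annotation, and for Trbc2 the share is 44.0%, in each case mostly with the other.

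The D and J segments beside the constant genes, which are not in the V or constant class, showed the same split in SB3. The first cluster (Trbd1 and Trbj1 segments, upstream of Trbc1) had 488 and 375 counts in the pieces of SB3, and the second cluster (Trbd2 and Trbj2 segments, upstream of Trbc2) had 3 and 3. SB1 had 7 and 5 counts of the first cluster and 8 and 12 of the second, and SB2 had 36 and 43 of the first and 11 and 22 of the second. In WT libraries the first cluster had 80 to 175 counts and the second 88 to 157, close to even. All 7 Trbj1 segments contributed in SB3, from 36 to 107 counts each in piece 1, so its J counts were not those of 1 segment.

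Of the 22 Trb V genes, 19 had a lower mean CPM in SB than in WT. The 19 tested all reached the filter's level in every WT spleen, and 6 of them reached it in no SB spleen. Of these 19, 11 were called lower in edgeR's test. None was called higher by edgeR at an adjusted p, at an unadjusted p under 0.05 or by DESeq2 (0 each). Trbv29 had 2 to 6 counts in SB libraries, against 43 to 85 in WT libraries (log2 -4.18, SE 0.46, edgeR adjusted p = 0.00636). It reached the filter's level in no SB spleen, so the direction of its change follows from the filter. Its call was kept in 5 of the 6 fits that left out an animal, against 1 to 3 of 6 for the other called TR genes. Trbv16 had 4 and 6 counts in SB1, 19 and 13 in SB2 and 1 and 2 in SB3, against 91 to 189 in WT libraries (log2 -4.23, SE 0.92, edgeR adjusted p = 0.0315). Trbv29 was chosen for mention after its values were seen, as were Trbv12-1, Trbv13-1 and Trbv13-3 among the Trb V genes below.

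Trbv13-2 and Trbv12-2 were the only tested Trb V genes whose log2 change was positive. Trbv13-2 had 1343 and 603 counts in SB1, 30 and 29 in SB2 and 84 and 51 in SB3, against 105 to 197 in WT libraries. Trbv12-2 had 813 and 476 counts in SB1, 27 and 43 in SB2 and 36 and 32 in SB3, against 68 to 148 in WT libraries. SB1 was thus above every WT library for both genes and the other SB animals were below, so neither was called (Trbv13-2 log2 1.29, SE 1.26, edgeR adjusted p = 0.510; Trbv12-2 log2 1.21, SE 1.21, edgeR adjusted p = 0.520). Without SB1 the log2 changes were -1.70 and -1.63 (adjusted p = 0.0355 and 0.0228).

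The close relatives of both genes did not share their counts. In the pieces of SB1, Trbv13-1 had 1 and 1 counts, Trbv13-3 had 6 and 1, and Trbv12-1 had 3 and 1. In WT libraries Trbv13-1 had 87 to 179 counts, Trbv13-3 had 50 to 109 and Trbv12-1 had 24 to 76. Trbv12-2 and Trbv13-2 are neighbours, with 2031 bases between them, and Trbv13-1 ends 2382 bases before Trbv12-2. Trbv13-3 begins 8314 bases after Trbv13-2, and Trbc1 begins 416385 bases after it. Only 0.344% of the 50-base stretches of Trbv13-2, and 1.19% of those of Trbv12-2, occur in another annotated gene.

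The last 280 coding bases of the V genes are shown so that the distance between neighbours can be read. They come from GENCODE M21 transcripts of GRCm38, on the plus strand. Trbv13-2 lies at chr6:41121553-41121832, Trbv13-1 at chr6:41116189-41116468 and Trbv13-3 at chr6:41130306-41130585. Trbv12-2 lies at chr6:41119085-41119364 and Trbv12-1 at chr6:41113788-41114067. Capitals mark bases of Trbv13-1 or Trbv13-3 that differ from Trbv13-2, bases of Trbv13-2 that differ from either, and bases that differ between Trbv12-2 and Trbv12-1. Trbv13-1 differs from Trbv13-2 at 33 of the 280 positions, Trbv13-3 at 24, and Trbv12-1 from Trbv12-2 at 31.
Trbv13-2: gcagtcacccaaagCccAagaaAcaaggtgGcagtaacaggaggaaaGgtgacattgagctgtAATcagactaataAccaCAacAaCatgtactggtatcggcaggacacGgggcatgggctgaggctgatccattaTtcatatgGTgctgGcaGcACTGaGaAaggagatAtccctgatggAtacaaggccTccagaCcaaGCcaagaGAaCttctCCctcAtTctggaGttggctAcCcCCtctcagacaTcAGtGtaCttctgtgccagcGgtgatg
Trbv13-1: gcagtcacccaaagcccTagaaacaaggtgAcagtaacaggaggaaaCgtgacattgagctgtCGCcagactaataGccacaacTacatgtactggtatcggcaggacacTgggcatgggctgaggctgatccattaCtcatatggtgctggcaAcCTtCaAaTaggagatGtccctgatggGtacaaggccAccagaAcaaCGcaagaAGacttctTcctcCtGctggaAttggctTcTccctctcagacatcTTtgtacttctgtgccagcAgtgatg
Trbv13-3: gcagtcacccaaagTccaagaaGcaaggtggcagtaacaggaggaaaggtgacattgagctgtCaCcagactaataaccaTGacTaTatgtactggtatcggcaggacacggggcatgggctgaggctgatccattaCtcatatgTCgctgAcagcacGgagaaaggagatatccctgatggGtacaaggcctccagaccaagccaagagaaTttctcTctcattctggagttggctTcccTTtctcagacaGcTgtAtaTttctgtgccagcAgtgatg
Trbv12-2: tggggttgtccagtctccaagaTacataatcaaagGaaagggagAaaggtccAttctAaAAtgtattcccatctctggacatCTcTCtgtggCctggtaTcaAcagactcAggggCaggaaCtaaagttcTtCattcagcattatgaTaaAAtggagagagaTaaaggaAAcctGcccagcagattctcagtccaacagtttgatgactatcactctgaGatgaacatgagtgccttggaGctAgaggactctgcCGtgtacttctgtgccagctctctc
Trbv12-1: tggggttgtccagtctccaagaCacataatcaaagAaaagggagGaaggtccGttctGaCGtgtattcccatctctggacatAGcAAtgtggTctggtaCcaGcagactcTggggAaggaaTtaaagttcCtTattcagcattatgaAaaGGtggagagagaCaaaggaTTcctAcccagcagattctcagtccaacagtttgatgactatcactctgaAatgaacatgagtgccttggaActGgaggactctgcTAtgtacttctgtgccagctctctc

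As a share of all Trb V counts of a spleen, Trbv13-2 made up 56.8% in SB1 (exact 95% interval 55.1% to 58.5%), 12.5% in SB2 and 53.6% in SB3 (47.2% to 59.9%), against 8.01% to 11.3% in WT libraries. Trbv12-2 made up 37.6%, 14.8% and 27.0% in SB1, SB2 and SB3, against 5.57% to 7.41% in WT libraries. In SB1 and SB3 this pair therefore held most of the Trb V counts, although the pair's absolute counts were high in SB1 alone. Trbv16 took 0.292%, 6.78% and 1.19% in SB1, SB2 and SB3, against 10.6%, 9.19% and 9.18% in WT1, WT2 and WT3. It was the most used Trb V gene of WT1, and Trbv13-2 was that of WT2 and WT3.

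**Figure D3:**
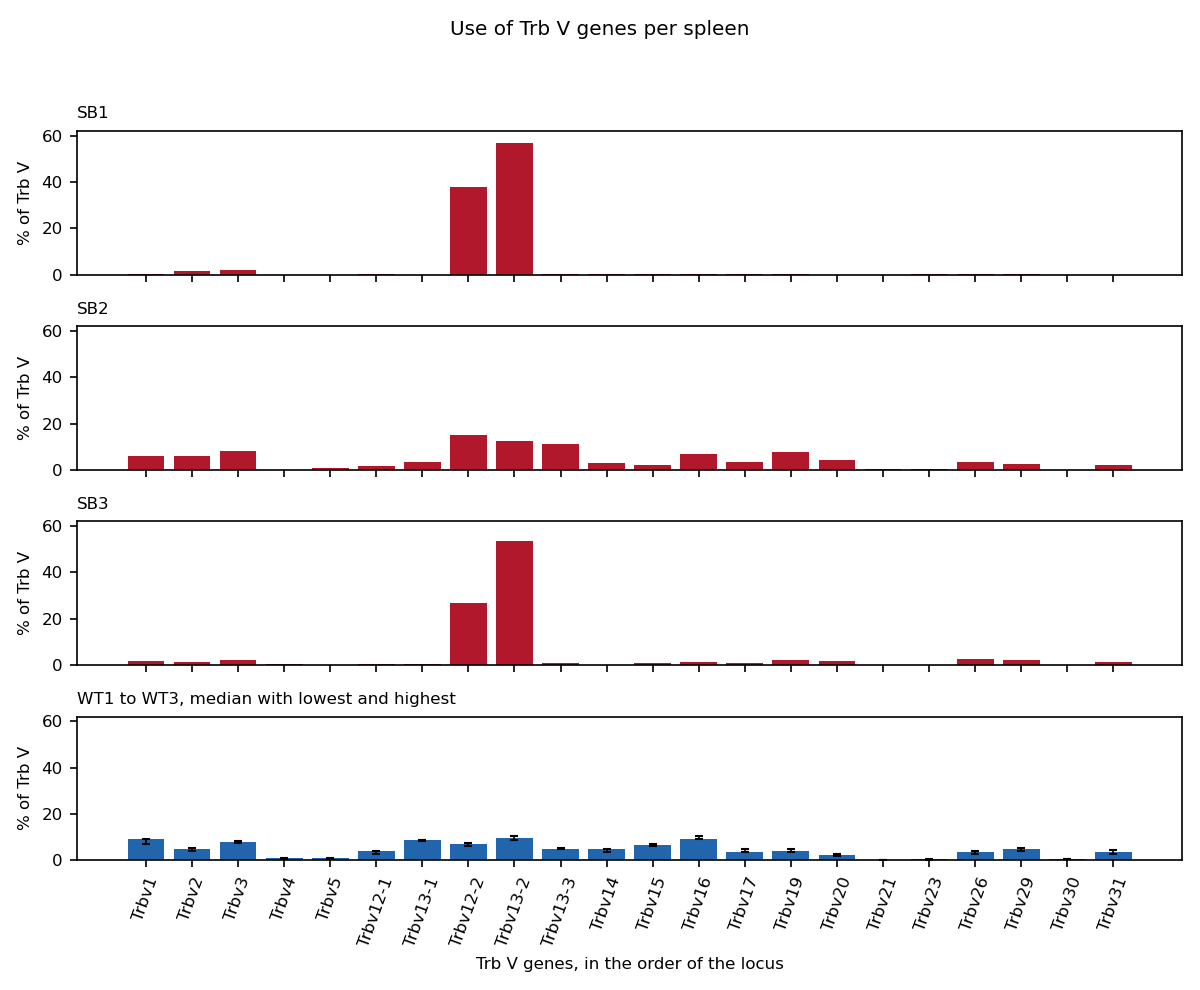
Share of each of 22 Trb V genes in the Trb V counts of a spleen (vertical axes, percent), with genes in the order of the locus. SB1 and SB3 have most of their counts in Trbv12-2 and Trbv13-2, SB2 has its counts spread over many genes, and WT spleens (median, with bars for the lowest and highest of 3 animals) have theirs spread over most genes.

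The evenness of V use was summarised as an effective number of V genes, which equals the number of genes when all are used alike and 1 when a single gene is used. For Trb it was 2.15, 12.4 and 2.77 in SB1, SB2 and SB3, against 15.3, 15.7 and 15.01 in WT1, WT2 and WT3. With Trbv12-2 and Trbv13-2 left out it was 5.15, 12.2 and 14.7 in the SB animals, from 191, 343 and 49 counts, against 13.4, 14.02 and 13.4 in the WT animals. The low value of SB3 thus came from that pair, and the other Trb V genes of SB1 were still uneven. The pieces of a spleen were alike in this: 2.05 and 2.35 in SB1, 12.5 and 11.9 in SB2 and 2.69 and 2.89 in SB3, against 14.4 to 15.9 in WT libraries.

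V and constant counts were out of balance in SB1 and SB3, in opposite directions. There were 1775, 49.8 and 6.25 Trb V counts per 100 beta constant counts in SB1, SB2 and SB3, against 46.7, 48.9 and 48.5 in WT1, WT2 and WT3. SB2, with less of both, kept the WT ratio. In SB1, V counts exceeded constant counts in both pieces (3874 and 873 per 100), and in SB3 constant counts exceeded V counts in both (8.52 and 4.49 per 100). These are ratios of counts, not corrected for transcript length.

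**Figure D4:**
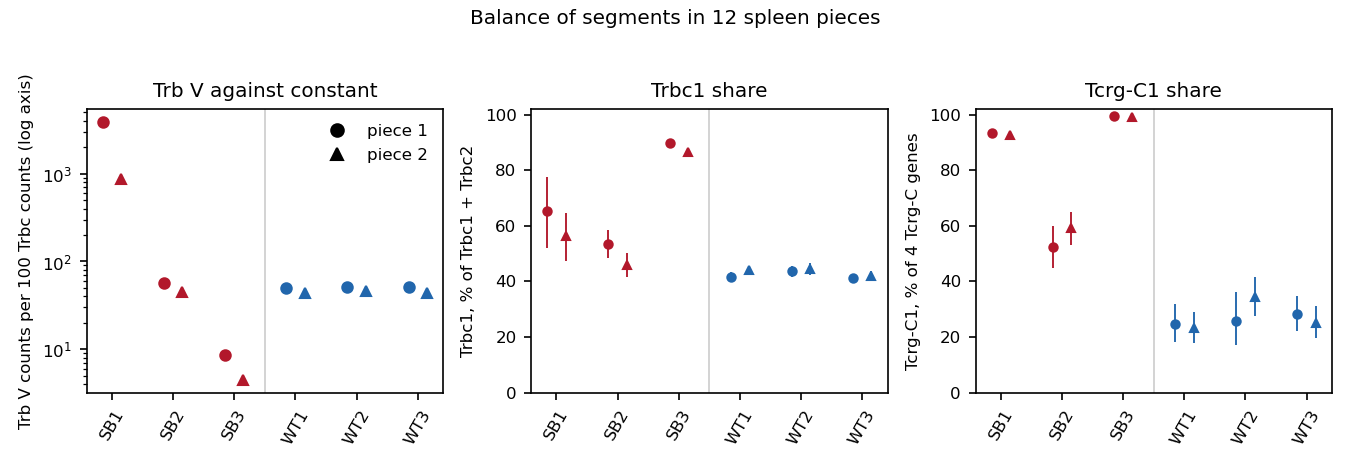
Trb V counts per 100 beta constant counts (log axis), Trbc1 as a percent of both beta constant genes, and Tcrg-C1 as a percent of the 4 gamma constant genes in 12 spleen pieces (bars on the 2 shares: exact 95% intervals). The V ratio of SB1 and SB3 leaves the WT range in opposite directions, and the Tcrg-C1 share is at least 92.9% in their pieces, above every WT piece.

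Of the 62 Tra V genes, 57 had a lower mean CPM in SB than in WT and 5 had a higher one. None of these 5, among them B230359F08Rik and Trav17, passed the filter on low counts. The 19 that passed reached its level in every WT spleen and in no SB spleen, so the direction of their changes follows from the filter. Of these, 11 were called lower in edgeR's test (0 were higher at an unadjusted p under 0.05 or by DESeq2). Trav3-3 had 5 and 0 counts in SB1, 7 and 3 in SB2 and 1 and 0 in SB3, against 13 to 36 in WT libraries (log2 -3.15, SE 0.79, edgeR adjusted p = 0.0456). Trav14-1 had 0 to 2 counts in SB libraries, against 8 to 21 in WT libraries (log2 -4.36, SE 0.80, edgeR adjusted p = 0.0202). Trav13-2 had 0 counts in both pieces of SB1 and SB3 and 4 and 3 in SB2, against 4 to 16 in WT libraries, and was not called (log2 -3.13, SE 1.18, edgeR adjusted p = 0.121). Trav6-2 and Trav8d-1, the second named after its values were seen, had no count in any SB library. With 3 counts over the 3 SB animals as the floor, they were at least 17.3-fold and 20.03-fold lower than their WT means of 0.473 and 0.549 CPM. In all, 14 of the 104 genes had no count in SB libraries and 3 had none in WT libraries.

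Tra V counts in SB spleens were few, 52, 112 and 99 in SB1, SB2 and SB3, against 635, 502 and 668 in WT1, WT2 and WT3. The effective number of Tra V genes was 6.11, 30.0 and 4.88 in the SB animals, against 34.6, 36.3 and 38.4 in the WT animals. B230359F08Rik, named here after its values were seen, led in SB1 and SB3 with 38.5% (exact 95% interval 25.3% to 53.0%) and 38.4% (28.8% to 48.7%), against at most 2.01% in a WT library. Its counts were 8 and 12 in SB1, 0 and 0 in SB2 and 16 and 22 in SB3, against 0 to 9 in WT libraries. Trav17, also named after its values were seen, took 22.2% in SB3 with 15 and 7 counts. In SB2, Trav6n-6 exceeded its WT share the most, with 6.25% from 3 and 4 counts, against at most 2.73% in a WT library. Thinned to 52 counts each, SB1, SB2 and SB3 would show 18.0, 27.1 and 14.1 Tra V genes and WT1, WT2 and WT3 would show 29.5, 29.6 and 30.6. Of the 62 Tra V genes, 20 share over 50% of their 50-base stretches with another gene, so counts of single Tra V genes depend on how shared reads were handled, which is not given in the sources used here.

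The gamma chain was the exception because of its first constant gene. Tcrg-C1 (ENSMUSG00000076749, chromosome 13, 19214103 to 19217024) had 1293 and 1185 counts in SB1, 95 and 160 in SB2 and 1361 and 1058 in SB3, against 23 to 64 in WT libraries. Every SB library was above every WT library, although SB2 was much nearer to WT than the other SB animals were. Tcrg-C1 averaged 45.6 ± 33.3 CPM in SB and 3.04 ± 0.376 CPM in WT (SD, n = 3 each), and it rose by a log2 of 3.90 (SE 0.83, edgeR adjusted p = 0.0296). The call was lost without SB3 (adjusted p = 0.0602) and without WT1, WT2 or WT3 (0.129, 0.133 and 0.129), with log2 changes of 3.45 to 4.40 over all 6 fits that left out an animal.

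Tcrg-C2 and Tcrg-C4, also gamma constant genes, were not called. Tcrg-C2 had 66 and 70 counts in SB1, 37 and 60 in SB2 and 6 and 7 in SB3, against 36 to 88 in WT libraries (log2 -0.78, SE 0.84, edgeR adjusted p = 0.547). Tcrg-C4 had 16 and 9, 48 and 48, and 0 and 2 counts in SB1, SB2 and SB3, against 30 to 101 in WT libraries (log2 -1.77, SE 1.17, edgeR adjusted p = 0.330). SB3 was the lowest spleen for both. Tcrg-C3, which did not pass the filter, went with Tcrg-C1 in SB1, where it had 11 and 12 counts, against 0 to 3 in every other library. Tcrg-C1 shares 34.2% of its 50-base stretches with other genes, mostly Tcrg-C3. Its share of all gamma constant counts was 93.1%, 56.5% and 99.4% in SB1, SB2 and SB3, against 23.7%, 31.6% and 26.6% in WT1, WT2 and WT3.

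Gamma V counts did not accompany Tcrg-C1. All 7 gamma V genes together had 7 and 3 counts in SB1, 18 and 14 in SB2 and 0 and 1 in SB3, against 16 to 40 in WT libraries. SB1 and SB3, highest for Tcrg-C1, were thus the lowest for gamma V genes, at 0.376 and 0.0411 V counts per 100 constant counts, against 13.9 to 16.6 in WT spleens. Trgv2, the only one tested, had 2 and 1, 14 and 10, and 0 and 0 counts in SB1, SB2 and SB3, against 1 to 23 in WT libraries (log2 -1.78, SE 1.22, edgeR adjusted p = 0.345). Tcrg-V4 had 0 to 2 counts in SB libraries, against 2 to 11 in WT libraries, and Tcrg-V1 had 0 to 2, against 1 to 11. Trgj1, the J segment upstream of Tcrg-C1 in the same cluster, did accompany it, with 169 and 97 counts in SB1, 11 and 17 in SB2 and 127 and 89 in SB3, against 0 to 7 in WT libraries.

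Delta V genes were too low for the test, and 1 of them went with 1 animal. Trdv2-2 had 0 and 0 counts in SB1, 0 and 4 in SB2 and 48 and 54 in SB3, against 2 to 10 in WT libraries. It made up 97.1% of the delta V counts of SB3 (exact 95% interval 91.9% to 99.4%), against 16.7% to 52.6% in WT libraries, which had only 8 to 24 delta V counts each. Trdc did not go with it, at 15 and 8 counts in SB3. Trdv2-2 shares 52.6% of its 50-base stretches, mostly with Trdv2-1, and overlaps the antisense gene Gm43647. Trdv1 had 0 or 1 counts in SB libraries, against 0 to 10 in WT libraries, and Trdv4 had 0 to 6, against 0 to 5.

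Pieces of the same spleen were compared with the animal as a block, in 26 TR genes that passed the filter over all animals. None was called, where 2.16% of all 15523 genes tested were called in either direction (5 TR genes had an unadjusted p under 0.05, and DESeq2 called 0). In SB spleens 0 of 12 were called, where 0.0% of all 15280 genes tested were called (2 had an unadjusted p under 0.05, and DESeq2 called 0). Trbv13-2 had a log2 of piece 2 over piece 1 of -0.77 in SB spleens (SE 0.14, edgeR adjusted p = 0.300). In WT spleens 2 of 34 were called, where 20.6% of all 15563 genes tested were. Trav6-2 was lower in piece 2, with 3, 4 and 3 counts in piece 2 and 11, 13 and 12 in piece 1 of WT1, WT2 and WT3 (log2 -1.79, SE 0.54, edgeR adjusted p = 0.0336). Tcrg-C4 was higher in piece 2, with 101, 59 and 87 counts in piece 2 and 66, 30 and 66 in piece 1 (log2 0.66, SE 0.22, edgeR adjusted p = 0.0490). DESeq2 called neither, and both calls were lost without WT2 or WT3. Trav6-2 was not called without WT1 either. Without WT1 there were 5 calls of 33 tested (Trac, Trbc2 and Trbv16 lower in piece 2, Tcrg-C1 and Tcrg-C4 higher). That fit called 3680 of all genes, against 3208 with all WT animals. In SB spleens, leaving out SB1 gave 1 call of 16 tested, Trbc2 higher in piece 2 (edgeR adjusted p = 0.0453), where 548 of all genes were called. Leaving out SB2 gave 3 of 14, Trbc1 and Trbc2 higher and Trbv13-2 lower in piece 2 (edgeR adjusted p = 0.00996, 0.00216 and 0.00184). That fit called 806 of all genes. No share over all genes is given for the piece fits without 1 animal, so their calls are not read as a result about TR genes. The difference between pieces was called different between SB and WT, by an interaction term in edgeR, for 0 of 38 TR genes tested, where 1.23% of all 16787 genes tested were called (3 TR genes had an unadjusted p under 0.05, and no other tool was run).

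V use was compared between libraries as the percent of usage not shared, which is 0 for identical use and 100 when no gene is used in common. For Trb it was 9.13%, 18.7% and 16.8% between the pieces of SB1, SB2 and SB3, and 14.9% to 71.4% between pieces of different SB spleens. In WT it was 7.08% to 9.13% between pieces of a spleen and 6.70% to 12.3% between spleens. The median in WT was 7.77% between pieces of a spleen and 9.15% between spleens, and in SB it was 16.8% and 56.0%. Trb V counts were 232 and 240 in the pieces of SB2 and at most 150 in those of SB3. WT pieces had 1061 to 1996. SB1, with 2247 and 1179 counts, lay within the WT range between pieces, at 9.13%. The part of depth in the larger values of SB2 and SB3 was not tested. For Tra, where counts were few, the usage not shared was 40.0% to 56.9% between the pieces of SB spleens. It was 26.4% to 31.7% between pieces of WT spleens. Between spleens it was 40.0% to 98.0% in SB (median 85.9%) and 24.0% to 38.6% in WT (median 29.7%).

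Genes that act with the receptor were lower or not called in SB spleens. Of a list of 25 genes of the receptor complex and its signalling, 23 were tested and 12 were lower in edgeR's test, where 9.1% of all genes tested were, with a median log2 change of -3.58 (0.11 over all genes tested). None was higher (0 at an unadjusted p under 0.05, 0 by DESeq2) and 11 were not called. Cd3d, a signalling subunit of the complex, had 1.99, 11.4 and 0.825 CPM in SB1, SB2 and SB3, against 73.5 ± 5.59 CPM in WT (log2 -3.96, SE 1.01, edgeR adjusted p = 0.0479). Lck, the kinase that starts receptor signalling, had 19.3, 30.7 and 12.8 CPM in the SB animals, against 205 ± 18.9 CPM in WT (log2 -3.29, SE 0.36, edgeR adjusted p = 0.00636). Lat, an adaptor of the receptor, had 18.4, 39.6 and 466.3 CPM in SB1, SB2 and SB3, against 142 ± 18.6 CPM in WT. It was high in SB3 alone and was not called (edgeR adjusted p = 0.874). The summed level of Cd3d, Cd3e, Cd3g and Cd247 was 6.11, 58.0 and 5.75 CPM in SB1, SB2 and SB3, against 264 to 308 CPM in WT animals. Per 100 CPM of this sum, Trac stood at 140, 40.0 and 33.3 CPM in the SB animals and at 40.3 to 41.7 CPM in the WT animals, and the Trg total stood at 1243, 25.2 and 1027 CPM in the SB animals and at 3.93 to 4.96 CPM in the WT animals. SB1 and SB3 thus had the lowest Cd3 sums and the highest Trg totals of the 6 spleens.

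Of 11 tested genes linked to gamma delta and innate-like T cells, 4 were lower (9.1% of all genes were) and 7 were not called in edgeR's test, with a median log2 change of -2.35 (1 was higher at an unadjusted p under 0.05 and 1 by DESeq2). Il23r, a cytokine receptor of such cells, had 0.0568, 0 and 0 CPM in SB1, SB2 and SB3, against 0.369 ± 0.0366 CPM in WT (log2 -4.08, SE 0.90, edgeR adjusted p = 0.0335). Il23r had only 38 counts over all libraries and reached the filter's level in no SB spleen. The direction of its change therefore follows from the filter. Blk and Ccr6, which B cells also express, had log2 changes of -6.77 and -5.39. Zbtb16, a transcription factor of innate-like T cells that other blood cells also express, had 49.98, 5.70 and 2.14 CPM in the SB animals and 1.82 ± 0.774 CPM in WT and was not called (edgeR adjusted p = 0.113).

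Markers of T cells and of other cell types were read from the same fit, in which 9.1% of all genes were lower and 7.99% higher, so a call of 1 gene in a short list is near that background. Of 10 T cell markers 7 were lower, 3 were not called and none was at 0, with sums of 10.05 to 98.7 CPM in SB and 492 to 577 CPM in WT spleens. The list of receptor complex and signalling genes above already holds all of these T cell markers but Bcl11b. It also holds the thymocyte markers Ptcra, Rag1, Rag2 and Dntt. All 6 B cell markers were lower, with sums of 51.4 to 109 CPM in SB and 6401 to 7200 CPM in WT spleens. None of 7 NK cell markers was called in edgeR's test (0 at an unadjusted p under 0.05, 0 by DESeq2), with sums of 14.7 to 41.6 CPM in SB and 54.1 to 56.1 CPM in WT spleens. Of 6 erythroid markers 3 were higher, with sums of 645 to 4458 CPM in SB and 879 to 2179 CPM in WT spleens. Of 5 megakaryocyte markers 2 were higher, with sums of 1014 to 4162 CPM in SB and 225 to 554 CPM in WT spleens. Pf4 and Itga2b, the genes called, were highest in SB3 and lowest in SB2 among SB spleens, whereas Ppbp was highest in SB2 (202, 443 and 30.7 CPM in SB1, SB2 and SB3, against 170 ± 75.7 CPM in WT) and Gp1bb was even (42.4, 40.9 and 43.0 CPM, against 18.6 ± 8.80 CPM in WT). Of 6 thymocyte markers, 1 of the 4 tested (Rag1) was lower. Rag1 had only 57 counts over all libraries and reached the filter's level in no SB spleen, so its direction follows from the filter. Ptcra, which was not tested, was at 0 in every SB library, but it had only 0.0595 to 0.162 CPM in WT animals and 10 counts over all libraries. No neutrophil or red pulp macrophage marker was called by edgeR, 6 tested of each (1 neutrophil marker was higher at an unadjusted p under 0.05 and 1 by DESeq2, and 0 macrophage markers by either). Of 4 endothelial markers, 2 were higher and 1 was lower. The part of these cell types in the TR results was not tested.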

How the data were processed

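Poly-A selected RNA libraries without strand information were made from 12 spleen pieces, per the labels' protocols. The deposited table holds 1 whole-number count per Ensembl gene and piece, and the differing column sums show no normalisation by the authors. The submitters' processing notes name STAR 2.5.3a and limma, with builds mm10 and GRCm38; the counting mode is not given in the sources used here. Identifiers were matched to GENCODE M21 (32026 of 32121 matched, 95 not), and 0 columns belonged to no sample. Receptor genes lie in families, so reads may be shared between near-identical genes, and sharing was measured as the percent of 50-base stretches of a gene's transcripts found in another gene.

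For each animal the 2 libraries were added up, and SB was compared with WT using edgeR 4.0.16 in R 4.3.3 (TMM, filterByExpr, robust quasi-likelihood test, two-sided, Benjamini-Hochberg adjustment over all genes tested, called under 0.05). Standard errors came from the F statistic. Pieces were compared with the animal, named in the titles, as a block. DESeq2 1.42.0 was an alternative. The fits were tested on simulated data. The p-values of SB against WT rest on the spread between animals of a genotype. Those of the piece comparisons rest on the spread left within animals after the block. CPM use TMM-scaled library sizes. A V gene's share is its percent of the V counts of its chain, with exact Clopper-Pearson 95% intervals. Intervals and the floor of 3 counts cover counting error only. The effective number of V genes is the inverse of the chance that 2 random counts hit the same gene.

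Genes were named by rule: all constant genes, the 3 V genes of each chain with the highest mean CPM, in each SB spleen with at least 100 V counts of a chain the most used V gene and the one most above WT, and genes called higher or called between pieces. Further TR genes named, and those given as examples from the other lists and near the loci, were chosen after their values were seen. The members and the gene lists were chosen with earlier results of these data known.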

Additional observations from a re-analysis of the deposited data

Results flagged for a closer look

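Among 54 sets of 6 libraries (named genes and chain totals, SB and WT apart), 3 held a library whose gap to the nearest other was large against the range of its group. The cutoff flags about 1 in 20 sets by chance if the 6 values are independent and normally distributed. Pieces of a spleen are not independent and several sets have counts near 0, so that rate need not hold here. All 3 flagged sets rest on few counts. Tcrg-V1 stood at 0.146 CPM in piece 1 of SB2, where the next SB library had 0.0523 CPM. Trdv1 stood at 0.0732 CPM in piece 1 of SB2, from 1 count, where the other 5 SB libraries had 0. Trdv2-2 stood at 0.675 CPM in piece 1 of WT1, where the next WT library had 0.274 CPM. The spread of Trbv13-2, Trbc1 and Tcrg-C1 among SB animals was not flagged, since both pieces of the animal concerned moved together.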

How the results depend on the processing

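The count of 25 TR genes lower in SB was 24 to 35 with DESeq2, RLE size factors, library totals alone, no filter on low counts, or without SB1 or SB3. It was 13 of 27 tested from piece 1 alone, 11 of 26 from piece 2 alone, and 0 to 47 over the fits that each left out 1 animal. Calls over all genes in the fits without 1 animal ran from 253 to 6174. The 1 gene called higher, Tcrg-C1, was called in every fit of these kinds that kept all animals, and 0 to 2 genes were called higher when 1 animal was left out. Between pieces, 0, 0 and 2 TR genes were called over all, SB and WT animals. With no filter these were 1 of 104, 2 of 90 and 4 of 101 tested, where 1861, 618 and 3838 of all genes were called. DESeq2 gave 0 in WT. Leaving out 1 animal gave 0 to 3 in SB and 0 to 5 in WT. Calls over all genes in those fits ran from 54 to 806 in SB and from 1158 to 3680 in WT. The pieces are paired by the animal, and a fit with no replicate block called 0 TR genes in WT as well. No paired analysis was possible across genotypes because SB and WT animals are not matched by any label.

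Chain totals kept their sign and stayed within 1 SD of the SB animals under library totals alone and without any 1 animal. V genes alone gave -2.04 for Trg and 0.27 for Trd (log2 SB over WT). Alternatives added after the data were seen gave -1.23 for Trg without Tcrg-C1 and -3.52 for Trb without Trbv12-2, Trbv13-2 and Trbc1. Over the fits that each left out 1 animal, the log2 change was -1.63 (without SB1) to 1.73 for Trbv12-2 and -1.70 (without SB1) to 1.82 for Trbv13-2. The effective number of Trb V genes differed by -9.54, SB minus WT, and by -2.93 without Trbv12-2 and Trbv13-2, also added after the data were seen. The cause was not tested beyond what each alternative leaves out. Depth limits the Tra, Trg and Trd V genes most.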

Other observations

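Genes with no TR biotype near the receptor loci were read from the same fit, a look added after the data were seen. Within 500 kb of the Trg locus, on chromosome 13, 7 such genes were tested, 2 lower and 2 higher in SB, where 9.1% of all genes tested were lower and 7.99% higher. Sfrp4, a secreted antagonist of Wnt signalling, had 12.1, 3.79 and 351 CPM in SB1, SB2 and SB3, against 0.602, 0.390 and 0.297 CPM in WT1, WT2 and WT3 (log2 8.14, SE 2.09, edgeR adjusted p = 0.0485). Epdr1, its neighbour, had 73.6, 30.1 and 313 CPM in the SB animals, against 7.97, 8.28 and 5.44 CPM in the WT animals (log2 4.26, SE 0.94, edgeR adjusted p = 0.0324). Stard3nl, which lies between them and the locus, was not called (log2 0.58, SE 0.39, edgeR adjusted p = 0.341). Amph, 27103 bases from the locus, was lower, with 3 to 5 counts in SB libraries, against 28 to 60 in WT libraries (log2 -3.48, SE 0.39, edgeR adjusted p = 0.00645). Amph reached the filter's level in no SB spleen, so the direction of its change follows from the filter. Near the Trb locus 1 of 9 genes was higher and 1 lower, and near the Tra and Trd locus 4 of 34 were higher and 1 lower. These few calls were not tested against the same shares of all genes.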
